A study of Homo sapiens with 5 samples.

Results

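The mitotic kinase genes are 10 genes whose products carry a protein kinase domain and work in mitosis, or peak there in dividing cells: AURKA, AURKB, PLK1, PLK4, BUB1, BUB1B, TTK, NEK2, MELK and PBK. They were chosen by symbol, and each was found once among the 26364 gene names of the expression table. The table holds 5 mRNA-seq libraries of IMR-90, a line of normal fibroblasts from human lung. The cells were growing, and RNA was taken 24 hr after siRNA transfection. Ctr-KD cells received a control siRNA (2 libraries, Ctr-1 and Ctr-2), and NSD2-KD cells received 1 of 3 siRNAs against NSD2, a methyltransferase of histone H3 lysine 36 (3 libraries, NSD2-1, NSD2-2 and NSD2-3). Each NSD2 siRNA is represented by 1 library, so siRNA and replicate cannot be told apart within NSD2-KD cells. All 5 libraries share the cell line and the transfection, and no untransfected cells were analysed here. The study asked how loss of NSD2 leads fibroblasts towards senescence, a lasting arrest of the cell cycle, and the comparison below asks how far the mRNA of the mitotic kinases differed 24 hr after the knockdown.

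Mitosis is driven by phosphorylation. The Aurora and Polo-like kinases mature the centrosomes, build the spindle and correct its attachments to chromosomes, while BUB1, BUBR1 (the product of BUB1B) and MPS1 (the product of TTK) run the spindle assembly checkpoint, which holds anaphase until every kinetochore is attached. In dividing cells most of these genes are transcribed late in the cell cycle, from promoters that the DREAM complex represses and the MYBL2 and FOXM1 factors activate, and arrested fibroblasts hold little of their mRNA. In bulk RNA, fewer cells in G2 and mitosis and less RNA per cell cannot be told apart.

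Values are normalized counts, the reads on a gene divided by a size factor of the library, and 1 read was worth 0.920 to 1.09 normalized counts. Reads on genes ranged from 2473691 to 2845063 per library, and a floor of 3 reads corresponded to 2.76 to 3.28 normalized counts. NSD2, listed under its older symbol WHSC1, stood at 463 and 443 in the Ctr-KD libraries and at 90.2, 81.9 and 87.9 in NSD2-1, NSD2-2 and NSD2-3, a log2 difference of -2.37 (SE 0.12, limma adjusted p = 0.000464). Without a Ctr-KD library the difference was as large but was not called (-2.34, adjusted p = 0.0926 without Ctr-1, and -2.41, 0.0788 without Ctr-2), and there the lone control is assumed to vary like the NSD2-KD libraries. Between Ctr-1 and Ctr-2 the difference hardly exceeded sampling noise, with a chi-square of 1.05 per degree of freedom over 12373 genes, against 3.87 to 5.29 for the other pairs of libraries. They were kept as 2 replicates because the labels name them as such, but the spread between Ctr-KD libraries may be technical. The p-values rest on the spread within both groups, and that within NSD2-KD may also hold differences between the siRNAs. The fibroblast markers summed to between 202436 and 228278 normalized counts with 0 of 10 called by limma (0 also at an unadjusted p under 0.05, and 0 by DESeq2 and by edgeR), whereas the epithelial, endothelial, blood and muscle markers summed to between 83.9 and 126, with KRT5, CDH5, PTPRC and CD3E at 0. PECAM1 is also listed at 0, but it could not be placed in the annotation used here, so its 0 says nothing of its level. Of the 11 markers of other cell types, 2 reached a mean of 10 normalized counts, so not all were absent. Their log2 differences were 0.12 and 0.20, and limma called 0 of them.

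All 10 mitotic kinase genes passed the filter on low values, a mean of 10 normalized counts, and were tested. In each of them all 3 NSD2-KD libraries lay below both Ctr-KD libraries, whereas 13.9% of the 11313 tested genes had their libraries in this order. The members were chosen with earlier results of these data known, so their shares beside those of all tested genes are descriptions, not tests. Summed over the 10 genes, the Ctr-KD libraries held 1102 and 1122 normalized counts, NSD2-1 held 534 (48.0% of the Ctr-KD mean), NSD2-2 held 393 (35.4%) and NSD2-3 held 663 (59.6%). The log2 difference, NSD2-KD minus Ctr-KD on the log2(normalized count + 1) scale, ran from -1.45 (AURKB) to -0.77 (NEK2) with a median of -1.09, beside a median of -0.01 over all tested genes. It was -1 or lower for 7 of the 10, against 1.34% of tested genes.

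**Figure D1:**
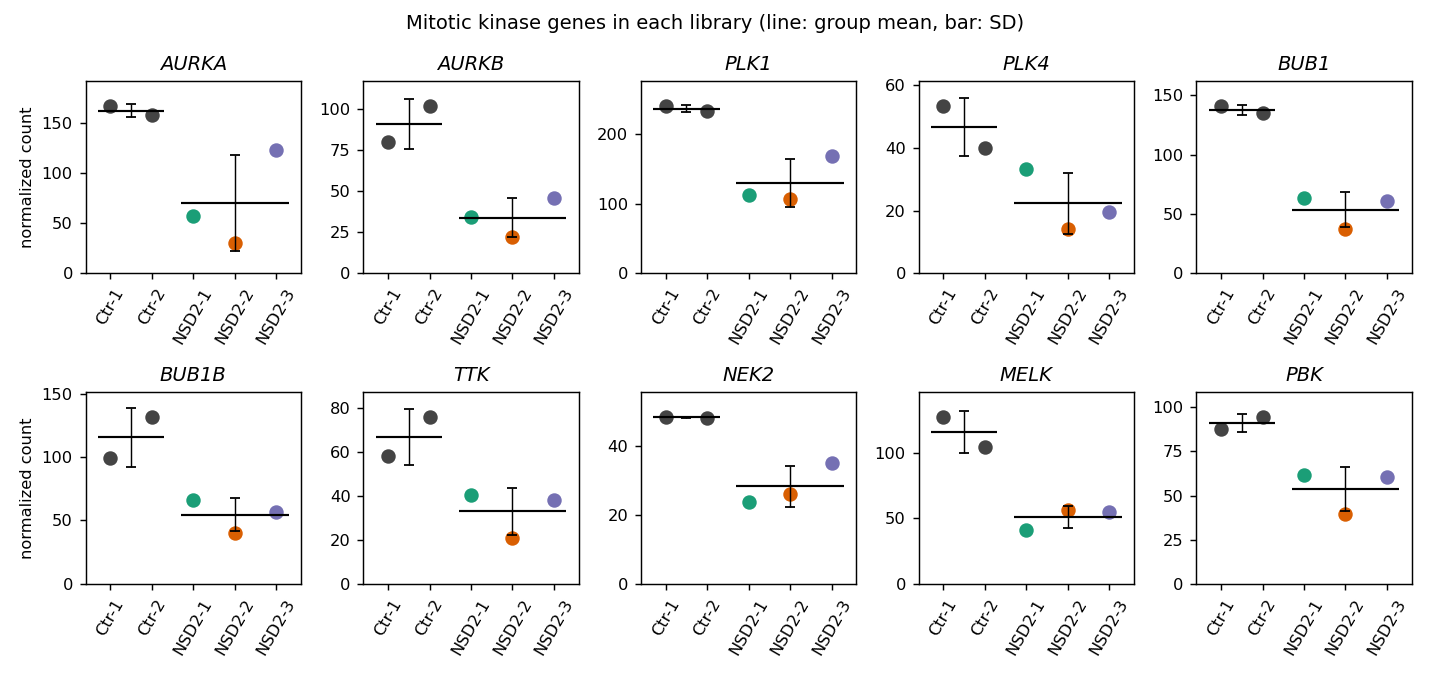
Normalized counts (vertical axes, from 0) of the 10 mitotic kinase genes in each library (horizontal axes), with the mean of each group as a line and its SD as a bar (Ctr-KD n = 2, NSD2-KD n = 3). In every panel the 3 NSD2-KD points lie below both Ctr-KD points, and AURKA is the gene whose NSD2-KD points lie farthest apart, from 30.6 to 123.

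These differences were mostly not larger than the spread between libraries allows a test across all genes to call. By limma, with p-values adjusted over the 11313 tested genes by the Benjamini-Hochberg method, 0 of the 10 passed a threshold of 0.05, at adjusted p-values between 0.147 (MELK) and 0.390 (AURKA), and 0.053% of all tested genes were called lower. At an unadjusted p under 0.05 all 10 passed, against 4.99% of tested genes lower at that level. On the reads recovered from the table, DESeq2 called 3 of the 10 lower (AURKB, BUB1 and MELK), with 0.404% of its tested genes called lower. Neither edgeR (0.0972% of tested genes called lower) nor limma-voom (0.0619%) called any of the 10. With 2 and 3 libraries, the smallest p of an exact permutation test is 0.1, so it could not decide single genes either.

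**Figure D2:**
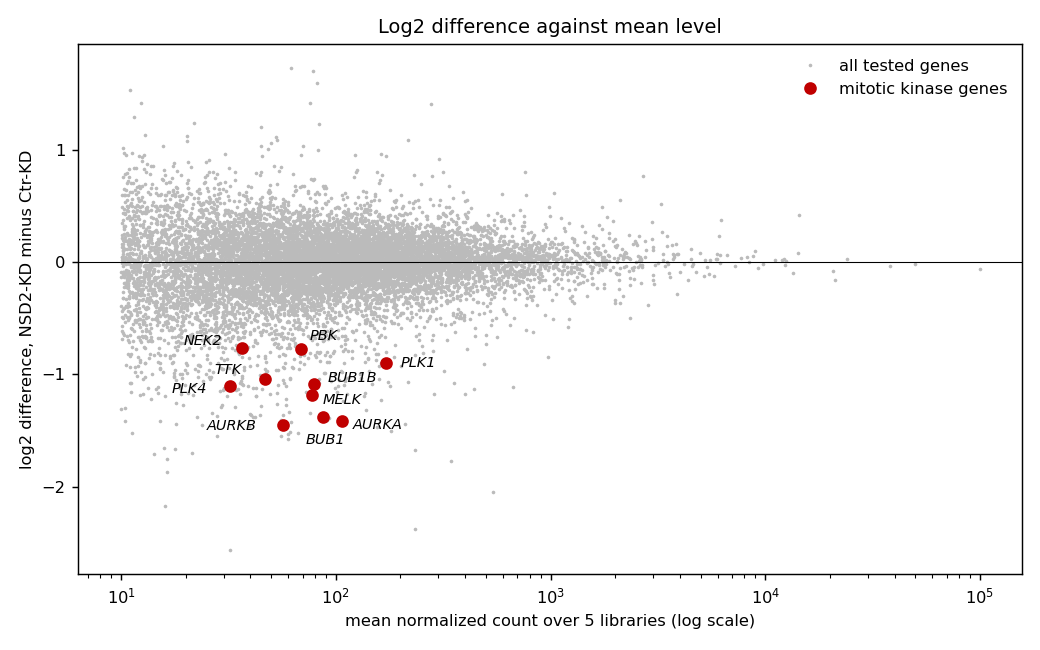
Log2 difference, NSD2-KD minus Ctr-KD (vertical axis), against the mean normalized count over the 5 libraries (horizontal axis, log scale) for the 11313 tested genes (grey) and the 10 mitotic kinase genes (red). The mitotic kinase genes lie between -1.45 and -0.77, and the median of all tested genes is -0.01.

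The Aurora kinases had the lowest mean log2 differences of the 10, for AURKA with a wide spread between siRNAs. By group means BUB1 (39.0% of Ctr-KD) stood below AURKA (43.3%), and AURKB was the lowest (37.3%). AURKA, which matures centrosomes and builds the spindle with its activator TPX2, had 167 and 157 normalized counts in Ctr-KD cells and 57.1 (NSD2-1), 30.6 (NSD2-2) and 123 (NSD2-3) in NSD2-KD cells. NSD2-2 was by far the lowest, NSD2-3 lay closest to the controls, and the groups did not overlap. The means were 162 ± 6.58 (SD, n = 2) and 70.2 ± 47.6 (SD, n = 3), a log2 difference of -1.42 (SE 0.47, limma adjusted p = 0.390). The coefficient of variation among the NSD2-KD libraries was 67.8%, where counting error alone would give 11.8%. Without NSD2-3 the AURKA difference was -1.93 and passed the threshold (limma adjusted p = 0.0487), and without NSD2-2 it was -0.94 (adjusted p = 0.370), closer to 0 than BUB1 (-1.14) and MELK (-1.26) in that fit. The gene spans chr20:54944445-54967393 on the minus strand (GRCh37, the assembly named hg19 in the labels).

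AURKB, the catalytic subunit of the chromosomal passenger complex, had 80.0 and 102 normalized counts in Ctr-KD cells and 34.0, 21.8 and 45.9 in NSD2-1, NSD2-2 and NSD2-3. The highest NSD2-KD library lay well below the lower control. Its mean went from 90.9 ± 15.4 (SD, n = 2) to 33.9 ± 12.0 (SD, n = 3), a log2 difference of -1.45 (SE 0.30, limma adjusted p = 0.201, DESeq2 adjusted p = 0.0186), the 23rd lowest among the tested genes. AURKB, at chr17:8108051-8113918 on the minus strand, is also a gene that the study followed by quantitative PCR and may have been picked for that from these libraries. By that PCR the paper reports reduced AURKB expression in NSD2-KD cells, at a later time than these libraries.

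The Polo-like kinases stood at opposite ends of the range of levels. PLK1, which drives mitotic entry, centrosome maturation and cytokinesis, had 240 and 233 normalized counts in Ctr-KD cells and 112, 106 and 169 in NSD2-1, NSD2-2 and NSD2-3. The Ctr-KD pair was tight, NSD2-1 and NSD2-2 were close to each other, and NSD2-3 lay between them and the controls. The log2 difference was -0.90 (SE 0.20, limma adjusted p = 0.237, DESeq2 adjusted p = 0.0871), from 236 ± 5.35 (SD, n = 2) to 129 ± 34.6 (SD, n = 3). Without NSD2-3 the PLK1 difference was -1.11 and passed the threshold (limma adjusted p = 0.0356). PLK1 lies at chr16:23688977-23701688 on the plus strand, and its exons overlap ERN2 on the other strand, which held 0 to 3.81 normalized counts in these libraries.

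PLK4, the kinase that starts the duplication of centrioles, was the least abundant of the 10, with 53.3 and 40.1 normalized counts in Ctr-KD cells and 33.1, 14.2 and 19.5 in NSD2-1, NSD2-2 and NSD2-3. The gap between the lower control and NSD2-1 was smaller than the gap between the 2 controls. From 46.7 ± 9.35 (SD, n = 2) to 22.3 ± 9.76 (SD, n = 3), the log2 difference was -1.10 (SE 0.35, limma adjusted p = 0.379). The values of PLK4 (chr4:128802048-128820379, plus strand) rest on 56 and 39 reads in Ctr-KD cells and on 36, 13 and 20 in NSD2-KD cells.

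Of the checkpoint kinases, BUB1 showed the clearest difference. BUB1, which phosphorylates histone H2A at centromeres and recruits checkpoint proteins to kinetochores, had 141 and 135 normalized counts in Ctr-KD cells and 63.5, 37.1 and 60.5 in NSD2-1, NSD2-2 and NSD2-3. The NSD2-KD libraries stood at 46.0%, 26.9% and 43.9% of the pooled Ctr-KD level, well clear of both controls. The means were 138 ± 4.40 (SD, n = 2) and 53.7 ± 14.4 (SD, n = 3), a log2 difference of -1.38 (SE 0.24, limma adjusted p = 0.164, DESeq2 adjusted p = 0.00193). BUB1 spans chr2:111395105-111435640 on the minus strand.

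BUB1B, whose product BUBR1 is part of the mitotic checkpoint complex, had 99.1 and 132 normalized counts in Ctr-KD cells and 66.3, 40.4 and 56.6 in NSD2-1, NSD2-2 and NSD2-3. The groups did not overlap, although on the log2 scale the controls were the most scattered pair of the 10. From 115 ± 23.1 (SD, n = 2) to 54.4 ± 13.1 (SD, n = 3), its log2 difference was -1.08 (SE 0.24, limma adjusted p = 0.227, DESeq2 adjusted p = 0.0658). The gene lies at chr15:40453224-40513324 on the plus strand and overlaps exons of PAK6 on the same strand, which held 1.95 to 8.23 normalized counts.

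TTK, whose product MPS1 starts checkpoint signalling at unattached kinetochores, had 58.1 and 76.1 normalized counts in Ctr-KD cells and 40.5, 20.8 and 38.1 in NSD2-1, NSD2-2 and NSD2-3. NSD2-1 and NSD2-3 were alike and NSD2-2 was lower. The difference, from 67.1 ± 12.7 (SD, n = 2) to 33.1 ± 10.8 (SD, n = 3), was -1.04 on the log2 scale (SE 0.31, limma adjusted p = 0.339). TTK spans chr6:80713604-80752244 on the plus strand.

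The remaining kinases were NEK2, MELK and PBK. NEK2, which splits the linked centrosomes before spindle assembly, had 48.6 and 48.4 normalized counts in Ctr-KD cells and 23.9, 26.2 and 35.1 in NSD2-1, NSD2-2 and NSD2-3. Its controls lay closer together than counting error would place them (51 and 47 reads), so their SD understates the error. The log2 difference was -0.77 (SE 0.23, limma adjusted p = 0.351), from 48.5 ± 0.164 (SD, n = 2) to 28.4 ± 5.93 (SD, n = 3), nearly tied with PBK as the smallest of the 10. NEK2 lies at chr1:211831999-211848972 on the minus strand.

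MELK, a kinase of the AMPK-related family whose mRNA follows proliferation, had 128 and 105 normalized counts in Ctr-KD cells and 41.4, 56.8 and 54.7 in NSD2-1, NSD2-2 and NSD2-3. It was the 1 member with its highest NSD2-KD value in NSD2-2, and its NSD2-KD libraries were the least scattered of the 10 (coefficient of variation 16.4%, against 14.0% from counting error). From 116 ± 16.1 (SD, n = 2) to 51.0 ± 8.34 (SD, n = 3), the log2 difference was -1.18 (SE 0.20, limma adjusted p = 0.147, DESeq2 adjusted p = 0.0107). MELK spans chr9:36572859-36677680 on the plus strand.

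PBK, a MAPKK-like kinase that is phosphorylated and active in mitosis, had 87.6 and 94.6 normalized counts in Ctr-KD cells and 61.7, 39.3 and 60.5 in NSD2-1, NSD2-2 and NSD2-3. NSD2-1 and NSD2-3 differed by less than the controls did. The log2 difference was -0.78 (SE 0.23, limma adjusted p = 0.337), from 91.1 ± 4.95 (SD, n = 2) to 53.8 ± 12.6 (SD, n = 3). PBK lies at chr8:27667141-27695599 on the minus strand. By symbol, AURKA, AURKB, BUB1 and NEK2 have 7 annotated pseudogenes between them, 0 of which were listed in the table. Copies annotated under other names would be missed. The authors kept uniquely mapped reads, so reads shared with a copy are not part of the values above if they mapped to more than 1 place.

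Levels were compared between genes per kilobase of the canonical transcript. In Ctr-KD cells PLK1 was the highest at 109 normalized counts per kilobase, followed by AURKA at 79.7, AURKB at 73.2, PBK at 49.6, MELK at 47.4, BUB1 at 36.7, BUB1B at 31.4, NEK2 at 22.7, TTK at 22.6 and PLK4 at 12.2. The Ctr-KD libraries of neighbours in this order overlapped for AURKA and AURKB, for PBK and MELK, for BUB1 and BUB1B, and for NEK2 and TTK, so these pairs cannot be ordered. In NSD2-KD cells PLK1 was again the highest, at 59.7 per kilobase, and PLK4 the lowest, at 5.81. AURKA ran from 15.0 to 60.5 per kilobase over the NSD2 siRNAs, a range that took in the NSD2-KD means of AURKB, PBK, MELK and PLK1.

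The siRNAs differed in how far the mitotic kinase genes stood below Ctr-KD. The median over the 10 genes was -1.03 with NSD2-1, -1.56 with NSD2-2 and -0.88 with NSD2-3 (log2 differences from the Ctr-KD mean), although NSD2 itself was left at 19.9%, 18.1% and 19.4% of its pooled Ctr-KD level. NSD2-2 was the lowest library for 8 of the 10, while NSD2-1 was the lowest for NEK2 and MELK. Among the 1569 tested genes whose 3 NSD2-KD libraries all lay below both controls, NSD2-2 was the lowest for 47.4%. NSD2-1 was the highest of the NSD2-KD libraries for PLK4, BUB1, BUB1B, TTK and PBK, and NSD2-3 for AURKA, AURKB, PLK1 and NEK2.

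AURKA was the member that varied most between the siRNAs. It stood at 35.2% of the pooled Ctr-KD level with NSD2-1 (95% counting interval 26.4 to 46.3), at 18.9% with NSD2-2 (12.3 to 27.8) and at 75.8% with NSD2-3 (61.2 to 93.4), and these 3 intervals did not overlap. Intervals cover counting error only, since each siRNA has 1 library. The AURKA level with NSD2-3 was 4.02 times that with NSD2-2 (interval 2.65 to 6.29), placing it 24th of 11313 genes by this ratio, and 0.212% of tested genes reached a ratio of 4. For AURKB the ratio was 2.10 (1.22 to 3.74), for TTK 1.83 (1.03 to 3.36), for BUB1 1.63 (1.06 to 2.55), for PLK1 1.59 (1.24 to 2.07) and for PBK 1.54 (1.00 to 2.39). At the other end, MELK had nearly the same level with both (ratio 0.962, interval 0.648 to 1.43), and the intervals of BUB1B, PLK4 and NEK2 also took in 1. The upper limit of the level stayed under 100% for 9 of the 10 genes with NSD2-1 (PLK4 reached 104%), for 10 with NSD2-2, and for 9 with NSD2-3 (NEK2 reached 107%).

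CCNB1, the cyclin that activates CDK1 at mitotic entry, had 310 and 303 normalized counts in Ctr-KD cells and 150, 86.3 and 239 in NSD2-1, NSD2-2 and NSD2-3 (log2 difference -1.07, limma adjusted p = 0.389). TPX2, the activator of AURKA, had 457 and 424 in Ctr-KD cells and 250, 146 and 310 in NSD2-KD cells (log2 difference -0.97, limma adjusted p = 0.315). For both genes NSD2-2 was again the lowest and NSD2-3 the highest of the NSD2-KD libraries.

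The promoters of the mitotic kinase genes were read for the cell cycle elements that late cell cycle genes are known for. RefSeq promoter windows (GRCh38.p14, from 250 bases before to 50 after the start site) were matched for 7 of the 10, and AURKA, TTK and PBK had no window. The sequences of PLK1, BUB1 and BUB1B are shown because they hold a cell cycle genes homology region (CHR, searched as TTTGAA or TTCGAA on both strands, the element that DREAM and MYBL2 complexes bind) close to the start site. They run 5′ to 3′ from 100 bases before to 25 bases after the start site, with CHR and CCAAT box letters (CCAAT on both strands) in capitals. They were read at chr16:23678789-23678913 on the plus strand for PLK1, chr2:110678039-110678163 on the minus strand for BUB1 and chr15:40160969-40161093 on the plus strand for BUB1B.
PLK1: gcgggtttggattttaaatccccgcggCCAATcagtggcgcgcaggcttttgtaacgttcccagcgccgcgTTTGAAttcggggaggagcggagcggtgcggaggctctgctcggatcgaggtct
BUB1: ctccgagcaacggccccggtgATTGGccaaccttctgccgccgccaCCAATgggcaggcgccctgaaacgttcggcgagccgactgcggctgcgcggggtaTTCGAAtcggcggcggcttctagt
BUB1B: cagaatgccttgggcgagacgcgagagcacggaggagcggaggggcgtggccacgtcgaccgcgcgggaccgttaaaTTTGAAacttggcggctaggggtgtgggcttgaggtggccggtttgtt

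A CHR was found in 4 of the 7 genes, counting a gene once whatever its number of windows, against 19.5% of the 27305 genes with a window. It began 29 bases before the start site in PLK1, 23 before in BUB1B, at base 2 of the transcript in BUB1 and at base 39 in PLK4, in the last on the opposite strand. CCAAT boxes were found in 5 of the 7, against 39.7% of all genes, in PLK4 in another of its 3 windows than the first listed. In PLK1 the CCAAT box began 73 bases before the start site and upstream of the CHR, and BUB1 held 2 CCAAT boxes upstream of its CHR. No window of the 7 held an E2F site written as TTTGGCGC or TTTCGCGC, which 1.40% of all genes held, and the 1 window of MELK held none of the 3 motifs. The matches are descriptions of letters in these windows. For comparison, a CHR was found in 10 of 13 mitotic kinesin genes and in 10 of 15 matched partners and substrates. It was found in 1 of 8 matched genes of the MCM list described below, and in 0 of 12 family paralogs. CCAAT boxes were found in 10, 12, 6 and 4 genes of these lists, in the same order. The E2F site was found in 1, 1, 5 and 0. BUB1, with a CHR, and MELK, without a match to any of the motifs, had the lowest limma p-values of the 10. Any link between the motifs and the differences was not tested, and AURKA, TTK and PBK had no window.

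**Figure D3:**
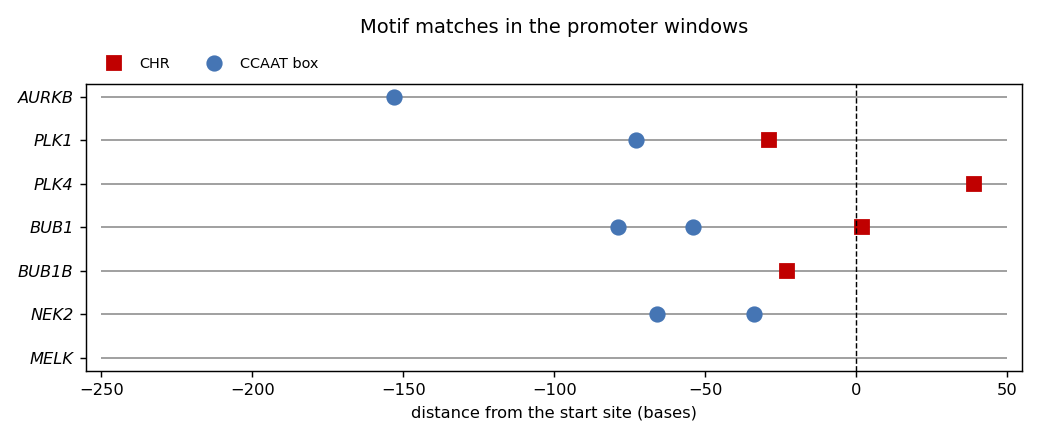
CHR (squares) and CCAAT box (circles) matches in the first listed promoter window of the 7 matched mitotic kinase genes, by distance from the start site in bases (horizontal axis; dashed line, start site). The CHR of PLK1, BUB1 and BUB1B lies within 29 bases of the start site, and the MELK window holds no match.

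AURKA has a neighbour that starts 34 bases away on the other strand, CSTF1, a subunit of the mRNA cleavage machinery. CSTF1 had 49.5 and 62.8 normalized counts in Ctr-KD cells and 59.8, 69.9 and 53.7 in NSD2-KD cells. Its groups overlapped (log2 difference 0.12, SE 0.20, limma adjusted p = 0.898), whereas those of AURKA did not.

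Paralogs of the same kinase families had differences closer to 0. Of 14 paralogs (AURKC, PLK2, PLK3, PLK5 and the other NEK genes), 8 were tested, with a median log2 difference of 0.15 and 0 with all 3 NSD2-KD libraries below both controls. PLK2 and PLK3, stress-induced Polo-like kinases, had all 3 NSD2-KD libraries above both controls (13.8% of tested genes), at log2 differences of 0.38 and 0.47 and limma adjusted p-values of 0.611 and 0.585. By limma 0 of the 8 were called, 0 passed an unadjusted p under 0.05, and DESeq2 called 0. AURKC, the Aurora kinase of germ cells, stayed between 0.920 and 3.09 normalized counts, at or near the floor of 3 reads.

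Partners and substrates of the mitotic kinases (20 genes, all tested) had a median log2 difference of -0.72, and 15 of them had all 3 NSD2-KD libraries below both controls. By limma 0 were called, 11 were lower at an unadjusted p under 0.05, and DESeq2 called CDCA8 (Borealin, a partner of AURKB; log2 difference -1.16, DESeq2 adjusted p = 0.0145) and CDC20 (the target of the checkpoint complex; -1.04, DESeq2 adjusted p = 0.0140). AJUBA, an activator of AURKA that also works at cell junctions, was at -0.10 and MAD1L1, a checkpoint protein, at -0.20, and the groups of both overlapped. The other 11 kinases with a role in mitosis had a median of -0.60, with 7 of 11 below both controls and 4 lower at an unadjusted p under 0.05. VRK1 (-1.37), which phosphorylates the chromatin tether BAF, PKMYT1 (-1.27), an inhibitor of CDK1, and CIT (-0.89), a kinase of cytokinesis, had values of the size of the members', but 0 of the 11 were called by limma, DESeq2 or edgeR. CDK1 itself was at -0.60 and its groups overlapped.

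The opposing phosphatases, the degradation genes and the regulators of G2/M genes had medians closer to 0, with single genes at the values of the kinases. The phosphatase list also holds the phosphatase inhibitors ENSA and ARPP19. Of its 21 tested genes, 6 had all 3 NSD2-KD libraries below both controls, and the median was -0.13. CDC25A (-1.12) and CDC25C (-0.89), which activate cyclin-dependent kinases rather than oppose them, had the largest differences. The 7 genes of mitotic protein degradation had a median of -0.01. UBE2C (-0.94) and UBE2S (-0.53), ubiquitin-conjugating enzymes that work with the anaphase-promoting complex, lay below both controls. Among 20 tested regulators of G2/M genes the median was -0.25. RBL1, the p107 pocket protein, was at -1.38 (limma adjusted p = 0.138, DESeq2 adjusted p = 0.0186), FOXM1 at -0.64 (limma adjusted p = 0.404), MYBL2 at -0.73 (0.400) and LIN9 at -0.98 (0.546). CDKN1A, which encodes the CDK inhibitor p21, was at 0.76 (limma adjusted p = 0.237, DESeq2 adjusted p = 0.0454), and 0.103% of genes were called higher by DESeq2. By limma 0 of the phosphatase, degradation and regulator genes were called. At an unadjusted p under 0.05, 4 phosphatase, 2 degradation and 5 regulator genes were lower, and PPP6C and CDKN1A were higher. On the recovered reads edgeR called 0 of them.

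The mitotic kinesins and the replicative helicase genes were the lists nearest to the mitotic kinases in size. Of 13 kinesins, 12 were tested, and all 12 lay below both controls, with a median of -0.94 and medians of -0.85, -1.38 and -0.63 with NSD2-1, NSD2-2 and NSD2-3. KIFC1 is listed at 0, and whether that 0 reflects its level was not tested. KIF14 had the largest value (-1.52, limma adjusted p = 0.448), and 0 of the 12 were called by limma, DESeq2 or edgeR, with 12 at an unadjusted p under 0.05. The 11 MCM, CDC45 and GINS genes, which act in S phase, had a median of -1.06, all 11 below both controls, and 0 called by limma, 10 at an unadjusted p under 0.05, 5 by DESeq2 (MCM3, MCM4, MCM5, MCM6 and MCM7) and 2 by edgeR (MCM5 and MCM6). NSD2-2 was the lowest library for all 12 kinesins and all 11 MCM, CDC45 and GINS genes, but for 8 of the 10 mitotic kinases. These lists share the same libraries, and no difference between lists was tested.

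**Figure D4:**
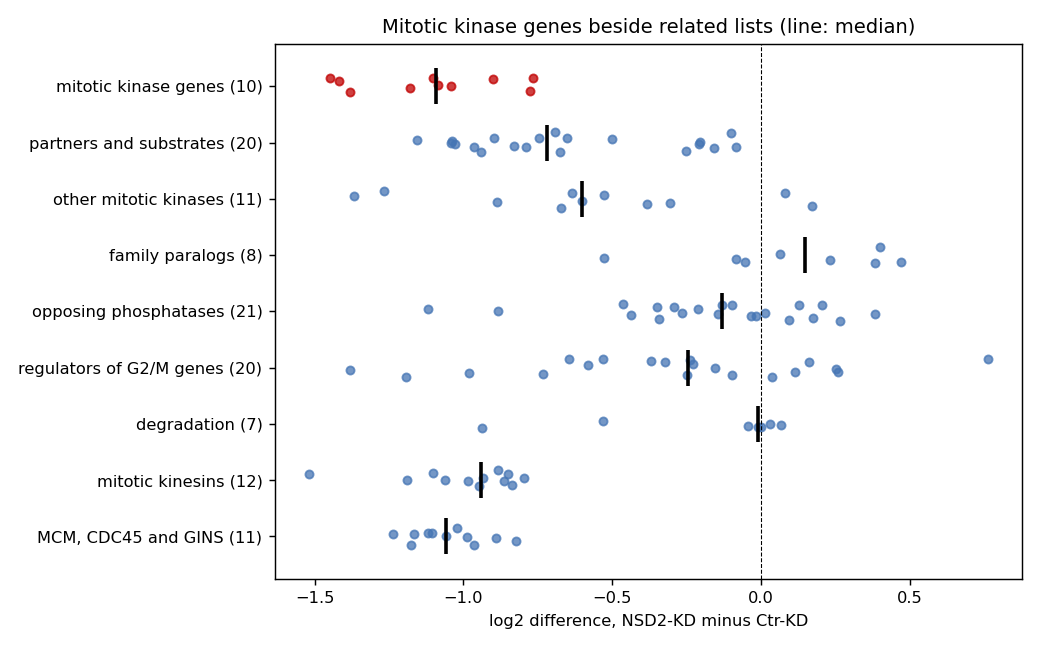
Log2 difference, NSD2-KD minus Ctr-KD (horizontal axis), of the tested genes of each list (points; number in brackets) with the median as a line. The mitotic kinase genes (red) have a median of -1.09, the mitotic kinesins -0.94, the MCM, CDC45 and GINS genes -1.06 and the family paralogs 0.15.

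The genes whose profile over the 5 libraries lay closest to the mean profile of the 10 were MCM4 (root mean square distance 0.032 on the log2 scale), DLGAP5 (0.055), CDCA8 (0.082), SGOL2 (0.094), POLE (0.096) and HMMR (0.099), among 7579 genes with a mean of 50 or more normalized counts. The profiles were centred on the Ctr-KD mean. The members themselves lay farther from their own mean, from 0.177 for BUB1B to 0.477 for AURKA. Those genes were picked as the nearest among 7579 and the members were not picked by distance, so the contrast follows from the selection.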

How the data were processed

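The labels name 2 Ctr-KD and 3 NSD2-KD mRNA-seq libraries, the latter each with its own siRNA. Per the supporting methods and the labels, the authors purified poly(A) RNA, trimmed and mapped single-end reads (HISAT2, hg19), filtered for unique ones (SAMtools) and counted reads on genes (featureCounts). Annotation and strand setting are not given in the sources used here, and the library kit does not mark strand. The signal in the deposited table is these read counts divided by a DESeq2 size factor per library, so a change common to every gene would not show. The other table, their own DESeq2 comparison with fold changes and p-values, was not used.

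Every value was a whole multiple of what 1 read is worth (100% whole within 0.01), so reads were recovered. The main test was limma 3.58.1, with its mean-variance trend, of log2(normalized count + 1), which understates changes of low genes, over 11313 genes with a mean of at least 10, two-sided, Benjamini-Hochberg adjusted, threshold 0.05. Alternatives were pseudocounts of 0.5 and 5, a filter at 50 or none, limma without trend, quantile normalization, edgeR 4.0.16 (quasi-likelihood, TMM), DESeq2 1.42.0 and limma-voom on the recovered reads (R 4.3.3), the replicate number as a block, and each library left out. On data simulated for this comparison with 4-fold changes, limma called 192, edgeR 193, DESeq2 187 and limma-voom 193 of 194 changed genes tested. In the same order, 7, 8, 0 and 7 unchanged genes were called among 11296 tested. Every simulated gene had the same dispersion and the same change in all NSD2-KD libraries, and the members' differences are smaller than 4-fold. The recovery therefore does not show how often differences of the members' size would be called.

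Counting intervals are exact conditional binomial intervals of read ratios. Gene positions and transcript lengths came from GENCODE on GRCh37, and promoters from RefSeq on GRCh38.p14. Of the 26364 names, 28 look like dates and 2 occur more than once. The members, gene lists and tests were chosen with earlier results of these data known. The text names all 10 members, NSD2, FOXM1, MYBL2, LIN9, CDKN1A, CDK1 and CCNB1, from each list the genes past the limma threshold (none were) or otherwise up to 4 with the largest fall and up to 2 with the largest rise among genes whose groups do not overlap, and the 6 genes nearest to the members' mean profile. AJUBA, MAD1L1, AURKC, CSTF1, KIFC1, ERN2 and PAK6 were added after their values were seen.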

Additional observations from a re-analysis of the deposited data

How the results depend on the processing

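The direction of the mitotic kinase genes did not depend on the alternatives run, and their calls did. All 147 log2 differences computed for the 10 genes under 15 alternatives were negative (PLK4, TTK and NEK2 have no value at a minimum mean of 50), and the median of the 10 stayed between -1.22 and -0.86. The number called lower, 0 by limma, was 3 by DESeq2 and 0 to 2 when a library was left out (2 without NSD2-3, AURKA and PLK1). Over all tested genes, limma called 6 lower and 4 higher. Without the trend these were 1 and 0, quantile normalization called 8 higher, edgeR called 11 lower, DESeq2 called 43 lower and 11 higher, and leaving out a library gave 0 to 22 lower and 0 to 8 higher (0 and 0 without either Ctr-KD library, 22 and 8 without NSD2-3). Of the 110 tested genes of the related lists, limma called 0 in either direction, edgeR 2 lower, limma-voom 1 lower, DESeq2 8 lower and 1 higher, and leaving out a library gave 0 to 6 lower (6 without NSD2-3) and 0 to 1 higher (1 without NSD2-1). The cause of these differences was not tested. With 2 libraries against 3 and as few as 13 reads on a member, counting error alone is large for PLK4, TTK and NEK2.

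With the replicate number as a block, 4 of the 10 mitotic kinase genes were called lower by limma (AURKA, AURKB, PLK1 and BUB1), as were 64 tested genes, 15 were called higher, and 11 genes of the related lists were called lower. This fit takes no difference from NSD2-3, which has no Ctr-KD library of its number. Numbers of NSD2-KD libraries are those of the siRNAs, and the labels give no pairing beyond the number. Deviations from the group means correlated at -0.015 and -0.027 between same-numbered libraries. The Ctr-KD deviations hardly exceed sampling noise, so these correlations cannot decide whether same-numbered libraries were handled together.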
